A study of Mus musculus with 17 samples.

Results

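The genes described here were 10 regulators of transcription in the male germline, Mybl1, Tcfl5, Rfx2, Crem, Taf4b, Ovol1, Sox30, Dmrtb1, E2f1 and Bcl11b. They were chosen by name, and all 10 were found among the 23980 genes listed in each of the 2 deposited tables. The study sequenced poly(A)+ RNA from 17 C57BL6/J mouse libraries to ask how loss of retrotransposon control changes the transcriptome of male germ cells. At 3 to 4 weeks of age, leptotene/zygotene (L/Z) spermatocytes, cells at the start of meiotic prophase, were sorted by FACS from testes of wild-type (WT) animals and of animals lacking Pld6 (Pld6 KO) or Dnmt3l (Dnmt3l KO), with 2 libraries per genotype. On postnatal day 0 (P0), whole testes were taken from WT (2 libraries), Pld6 KO (4 libraries), Dnmt3l KO (2 libraries) and Pld6/Dnmt3l double KO (DKO, 3 libraries) animals. Pld6 encodes a mitochondrial factor of piRNA production, and Dnmt3l encodes a cofactor of de novo DNA methylation that has no catalytic activity of its own. Both mutations act in every cell of the animal. Per the study, the mutant testes used for L/Z cells hold no germ cells beyond zygotene, the stage at which these cells die. P0 testes are mostly somatic tissue around a few prospermatogonia.

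Meiosis in the male runs on transcription factors that act in turn. MYBL1 (A-MYB), a relative of the MYB proto-oncogene product, switches on many genes at the pachytene stage, among them genes that make pachytene piRNAs, and TCFL5 works at about the same stage. RFX2, SOX30 and CREM are best known for the genes of spermatids that come after meiosis. DMRTB1 (DMRT6) acts earlier, when spermatogonia leave mitosis for meiosis, and TAF4B is a germ cell subunit of the general factor TFIID. OVOL1 is a zinc-finger repressor needed for progress through meiotic prophase, E2F1 is a cell-cycle activator that RB proteins hold in check, and BCL11B is a zinc-finger factor best known from T cells.

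Estimated fragment counts, the number of sequenced fragments assigned to a gene, summed to between 5194238 and 14578341 per L/Z library and to between 9900346 and 23498968 per P0 library. Pld6 had 0 counts in both L/Z Pld6 KO libraries (344 and 352 in WT) and 2, 0, 1 and 2 counts in the P0 Pld6 KO libraries (57 and 40 in WT). Dnmt3l had 0 counts in both L/Z Dnmt3l KO libraries (19 and 11 in WT) and 2 and 1 counts in the P0 Dnmt3l KO libraries (53 and 72 in WT). Some libraries stood apart. Rn45s, the 45S ribosomal RNA precursor, took 8.27% of the fragments in L/Z WT replicate 1 and 8.06% in L/Z Pld6 KO replicate 1. The other L/Z libraries had at most 0.301%. P0 DKO replicate 1 had 4.43%, all P0 Pld6 KO libraries had 0%, and the other P0 libraries had 0.104% to 0.981%. At P0, the summed level of 14 prospermatogonia markers was 63.4 FPKM in Pld6 KO replicate 1 and at least 119 FPKM elsewhere, and the summed level of 24 L/Z spermatocyte markers was 257 FPKM in Dnmt3l KO replicate 1 and at most 159 FPKM elsewhere. FPKM is the fragment count scaled by transcript length and library size, a level that can be compared between genes.

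In WT L/Z spermatocytes, the levels of the 10 genes spanned from about 1 to over 100 FPKM (mean ± SD, n = 2). Dmrtb1 stood at 116 ± 25.6 FPKM, with no overlap with the next gene, Tcfl5, at 59.9 ± 18.3 FPKM. Taf4b followed at 45.5 ± 5.38 FPKM, overlapping Tcfl5, and E2f1 at 25.5 ± 4.36 FPKM, below both. Rfx2 (13.1 ± 6.13 FPKM), Mybl1 (10.3 ± 3.49 FPKM), Crem (8.24 ± 3.85 FPKM) and Sox30 (7.71 ± 5.87 FPKM) overlapped between libraries. Within each library, Rfx2 lay above Mybl1 and Mybl1 above Crem and Sox30, which changed places between the libraries. Tcfl5 lay above Taf4b, and Sox30 above Ovol1, within each library. Ovol1 (3.62 ± 1.53 FPKM) overlapped Sox30, and Bcl11b (1.13 ± 0.299 FPKM) lay below all of them. All 10 genes were higher in WT replicate 2 than in WT replicate 1, and the summed L/Z marker level was also higher in WT replicate 2 (3292 FPKM) than in WT replicate 1 (1959 FPKM).

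**Figure D1:**
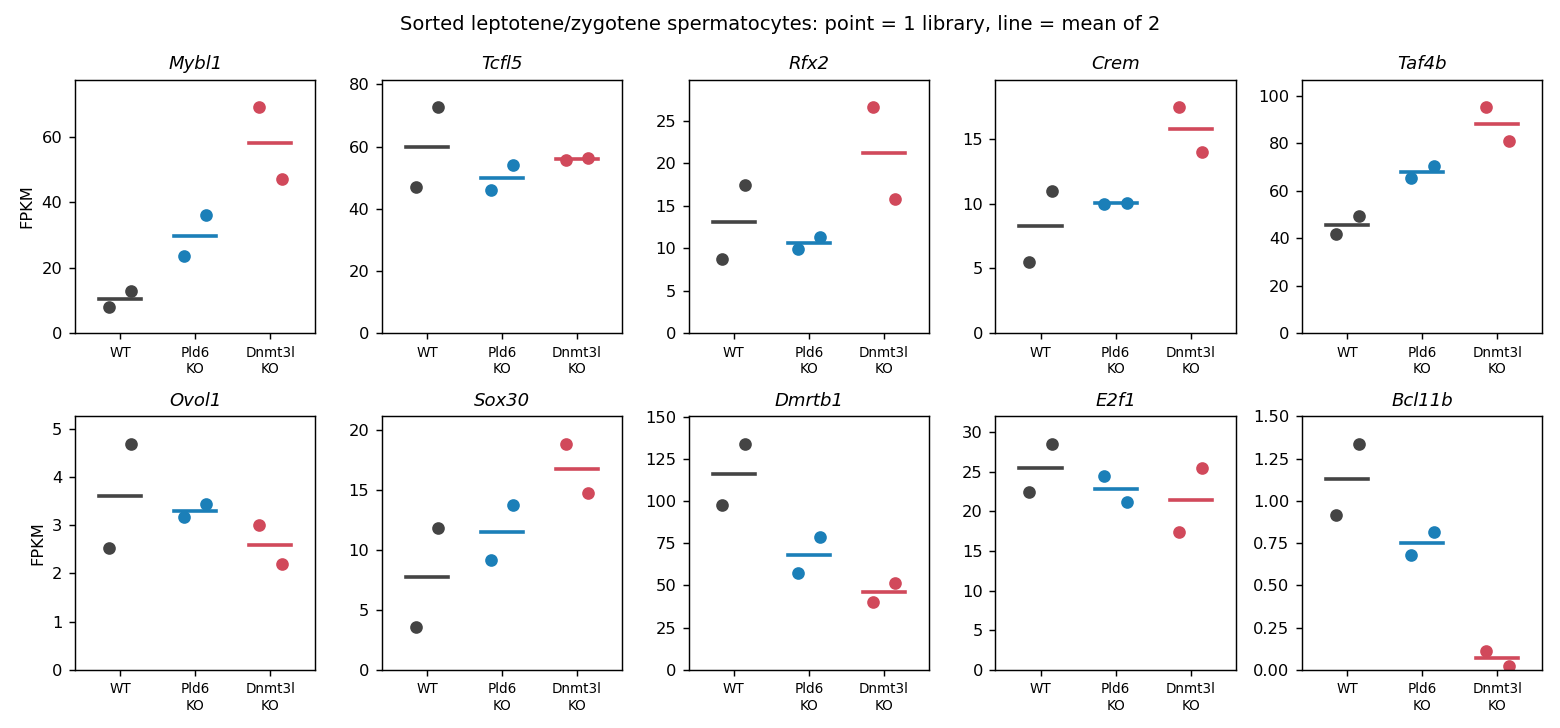
FPKM of each gene (vertical axes, each from 0) in every L/Z library, by genotype. Points are libraries and lines are group means. Mybl1 and Taf4b sat above WT in all 4 mutant libraries, and Dmrtb1 and Bcl11b sat below WT in all 4.

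Tables for the stages were made separately, from sorted cells and whole organs with different read types, so the ratios below are descriptions with no test. Dmrtb1 had a mean of 0.281 FPKM in P0 WT testes, 413 times lower than in L/Z WT cells. Sox30, Tcfl5, Taf4b, Ovol1 and Rfx2 were 11.7, 8.30, 7.13, 5.80 and 4.28 times higher in L/Z WT cells. Crem (1.38), E2f1 (1.29) and Mybl1 (1.09) had ratios near 1, and Bcl11b was at 0.645 of its P0 level. Bulk RNA cannot tell apart fewer cells of a type and less RNA per cell, and P0 testes also hold somatic RNA. The levels of Mybl1 in whole WT P0 testes (8.96 and 9.97 FPKM) lay within those of sorted WT L/Z cells (7.85 and 12.8 FPKM).

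The sequence before annotated starts of the genes was read from RefSeq for the files' genome (mm10, GRCm38.p6). The search covered 7 promoter windows of 6 of the 10 genes, Tcfl5, Rfx2, Dmrtb1, E2f1, Bcl11b and Sox30. The other genes were not searched, so nothing is said of motifs before them. The 250 bases before each start were searched on both strands. The motifs were the MYB heptamer GGCAGTT, the cAMP response element TGACGTCA, the RFX core GTTGCC, the E2F site GGCGGGAA and the E-box CACGTG. Only 2 windows held a match. Tcfl5 had a MYB heptamer that began 142 bases before the start, a motif found in 3.33% of all 32851 windows, and Rfx2 had an RFX core that began 116 bases before the start, found in 10.4% of all windows. The cAMP response element, the E2F site and the E-box, in 1.55%, 1.86% and 6.02% of all windows, had no match in these 7 windows. A match describes letters and not binding. The windows of Tcfl5 and Rfx2 lay directly before the gene's annotated span. Those of Dmrtb1, E2f1, Bcl11b and Sox30 lay inside it, so they do not describe the sequence before the whole gene. CpG counts are of interest because Dnmt3l acts on CpG methylation: the members' windows held from 7 to 43 CpGs against a median of 6 over all windows, with the most in E2f1 (43) and fewest in the upstream start of Dmrtb1 (7). The windows shown are the 2 with a match (match in capitals) and those of the 2 genes with windows whose levels fell in Dnmt3l KO cells (CpGs in capitals), for Dmrtb1 the start with 21 CpGs. They lie at chr2:180642692-180642941 (Tcfl5), chr17:56831009-56831258 (Rfx2), chr4:107683590-107683839 (Dmrtb1) and chr12:108003415-108003664 (Bcl11b), all on the minus strand, and run 5′ to 3′ up to the base before the start.
Tcfl5: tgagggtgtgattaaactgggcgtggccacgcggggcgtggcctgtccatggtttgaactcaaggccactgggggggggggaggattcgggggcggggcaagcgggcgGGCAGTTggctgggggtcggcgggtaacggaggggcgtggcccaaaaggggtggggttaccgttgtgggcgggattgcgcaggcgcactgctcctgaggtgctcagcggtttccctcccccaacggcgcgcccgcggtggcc
Rfx2: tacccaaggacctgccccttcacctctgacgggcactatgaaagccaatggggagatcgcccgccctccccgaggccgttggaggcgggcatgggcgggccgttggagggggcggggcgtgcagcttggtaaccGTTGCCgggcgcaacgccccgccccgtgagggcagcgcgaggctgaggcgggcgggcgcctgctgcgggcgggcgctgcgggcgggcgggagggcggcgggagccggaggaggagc
Dmrtb1: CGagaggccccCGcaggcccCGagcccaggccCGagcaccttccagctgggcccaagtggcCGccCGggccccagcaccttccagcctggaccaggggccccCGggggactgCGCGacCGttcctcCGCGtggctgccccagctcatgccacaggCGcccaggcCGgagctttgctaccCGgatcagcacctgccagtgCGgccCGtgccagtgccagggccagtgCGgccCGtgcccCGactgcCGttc
Bcl11b: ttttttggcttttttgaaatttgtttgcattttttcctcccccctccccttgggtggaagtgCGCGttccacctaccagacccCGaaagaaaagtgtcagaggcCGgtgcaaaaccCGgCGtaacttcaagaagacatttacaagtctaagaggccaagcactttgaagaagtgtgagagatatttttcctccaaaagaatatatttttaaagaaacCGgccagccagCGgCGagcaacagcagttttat

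Loss of Dnmt3l gave the largest changes among the 10 genes in L/Z spermatocytes. Mybl1 rose, and Dmrtb1 and Bcl11b fell: 3 of the 10 genes were called by edgeR, at an adjusted p under 0.05 and a change over 2-fold. Of all 14662 genes tested, 5.47% were called (3.89% higher and 1.58% lower), and 7.2% had an adjusted p under 0.05 at any fold, which among the members added Taf4b. The median log2 fold change of the 10 genes was 0.29, against -0.04 over all genes tested. By level, 6 of the 10 genes (4 above and 2 below) did not overlap WT in Dnmt3l KO cells and 4 (2 above and 2 below) in Pld6 KO cells, where 56.7% and 43.1% of all genes over 1 FPKM in a library did not overlap either.

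Mybl1 (chr1:9667407-9700439), the pachytene activator, was at 7.85 and 12.8 FPKM in WT, at 23.5 and 36.0 FPKM in Pld6 KO and at 69.1 and 47.2 FPKM in Dnmt3l KO cells. All 4 mutant libraries lay above both WT libraries, and both Dnmt3l KO libraries lay above both Pld6 KO libraries. In Dnmt3l KO cells the log2 fold change was 2.49 (SE 0.31), or 5.63-fold, with an edgeR adjusted p of 0.00345. In Pld6 KO cells it was 1.54 (SE 0.30), or 2.91-fold, and missed the threshold (edgeR adjusted p = 0.0886). The mutants did not differ past the threshold from each other (0.95, SE 0.30, edgeR adjusted p = 0.178). By mean level, Mybl1 moved from rank 6 among the 10 genes in WT to rank 4 in Pld6 KO and rank 2 in Dnmt3l KO cells.

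Markers of L/Z spermatocytes also moved. Of 24 markers of L/Z spermatocytes, 11 rose and 0 fell in Dnmt3l KO cells, with a median of 1.08 on the log2 scale and summed levels of 5628 and 5371 FPKM, against 1959 and 3292 FPKM in WT and 2231 and 3182 FPKM in Pld6 KO cells. Among them, Prdm9, which sets recombination hotspots, rose by 1.88, the cohesin gene Rad21l by 1.38 and the recombination gene Meiob by 2.17. As a share of that marker sum, Mybl1 was at 0.401% and 0.388% in the WT libraries, at 1.05% and 1.13% in Pld6 KO and at 1.23% and 0.879% in Dnmt3l KO libraries, so the 4 mutant libraries still lay above WT. This share was computed after the levels had been seen and has no test.

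**Figure D2:**
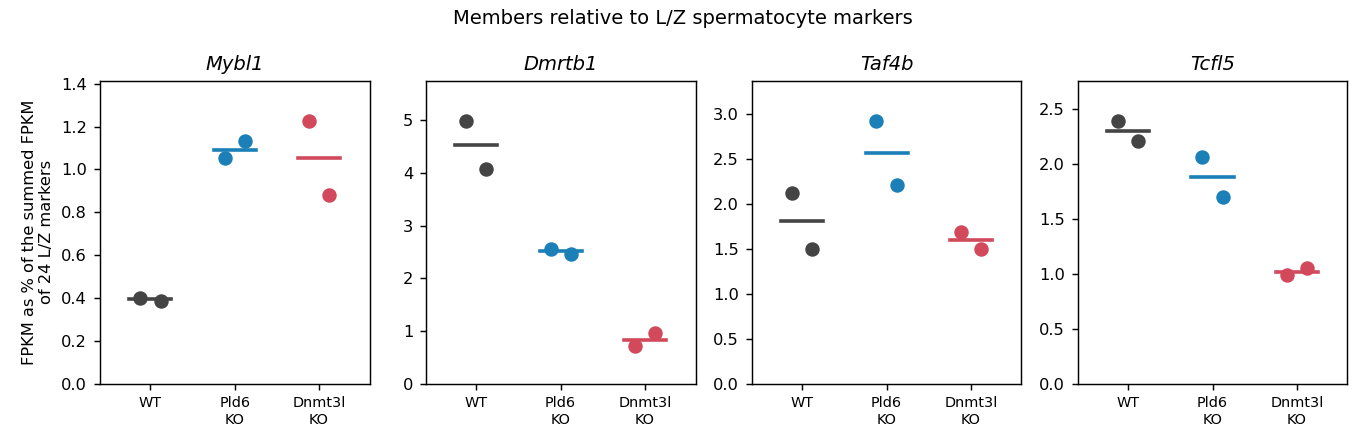
Level of Mybl1, Dmrtb1, Taf4b and Tcfl5 as a percentage of the summed FPKM of 24 L/Z spermatocyte markers in the same library (vertical axes from 0). Points are libraries and lines are means of 2. Mybl1 was at 0.388% to 0.401% in WT and at 0.879% or more in every mutant library. Dmrtb1 and Tcfl5 were lowest in the Dnmt3l KO libraries, where the marker sum was highest. Of the members not drawn, Ovol1, E2f1 and Bcl11b were also lowest there.

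Several genes of the pachytene piRNA pathway are textbook targets of MYBL1. Of 18 tested, 0 rose and 3 fell in Dnmt3l KO cells. By sign, 11 had positive and 7 negative log2 fold changes, 8 had an unadjusted p under 0.05 and the median was 0.11. Asz1, a germ cell protein of the piRNA machinery, had a log2 fold change of 0.85 with an edgeR adjusted p of 0.0305, under the 2-fold limit. Piwil1 (MIWI), the PIWI protein of pachytene cells and spermatids, was at 8.02 and 8.81 FPKM in WT, at 3.30 and 5.06 FPKM in Pld6 KO and at 1.68 and 1.75 FPKM in Dnmt3l KO cells. Its log2 fold change in Dnmt3l KO cells was -2.29 (SE 0.31, edgeR adjusted p = 0.00514). Tdrd6, a Tudor protein of the chromatoid body, fell by 3.70 (SE 0.79, edgeR adjusted p = 0.0241) from a low level, and Henmt1, the piRNA methyltransferase, fell by 1.16 (SE 0.31, edgeR adjusted p = 0.0468). In Pld6 KO cells none of the 18 was called by edgeR, with 2 at an unadjusted p under 0.05. The summed level of 22 genes that come on around pachytene, Piwil1 among them, was 400 and 829 FPKM in WT. It was 360 and 451 FPKM in Pld6 KO and 715 and 560 FPKM in Dnmt3l KO libraries. Of the 19 of these genes tested, 15 had negative and 4 positive log2 fold changes in Pld6 KO cells (median -0.64). In Dnmt3l KO cells 12 were negative and 7 positive (median -0.26). An unadjusted p under 0.05 was reached by 8 of the 19 in Pld6 KO and 7 in Dnmt3l KO cells. The part of these genes in the results above was not tested.

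**Figure D3:**
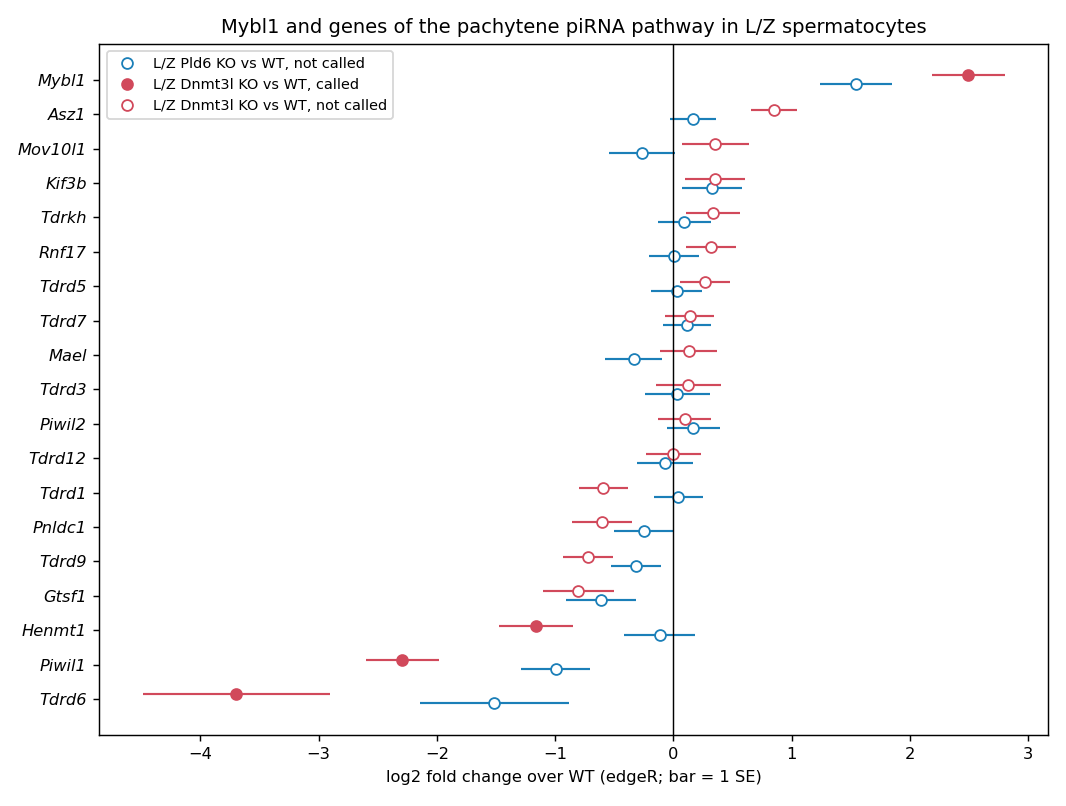
Log2 fold change over WT (horizontal axis, bars 1 SE) of Mybl1 and 18 pachytene piRNA pathway genes in L/Z cells of each mutant. Filled points were called. Mybl1 lay at the right end, at 2.49 in Dnmt3l KO, while Tdrd6, Piwil1 and Henmt1 were the genes called lower.

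Among the other factors of pachytene and spermatid genes (Tcfl5, Sox30, Crem and Rfx2), none was called. Tcfl5 (chr2:180621956-180642691) hardly moved: its level was 46.9 and 72.8 FPKM in WT, 46.1 and 54.0 FPKM in Pld6 KO and 55.8 and 56.4 FPKM in Dnmt3l KO cells. The mutant values lay within the WT range but for Pld6 KO replicate 1, and the log2 fold change in Dnmt3l KO cells was -0.10 (SE 0.24, edgeR adjusted p = 0.824). As a share of the L/Z marker sum, Tcfl5 was at 2.40% and 2.21% in the WT libraries, 2.06% and 1.70% with Pld6 lost, and 0.992% and 1.05% with Dnmt3l lost.

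Sox30 (chr11:45979069-46017992), an activator of spermatid genes, was at 3.56 and 11.9 FPKM in WT, at 9.17 and 13.7 FPKM in Pld6 KO and at 18.9 and 14.7 FPKM in Dnmt3l KO cells. Both Dnmt3l KO libraries lay above WT, but the WT libraries were more than 3 times apart. As a share of the L/Z marker sum, Sox30 was at 0.335% and 0.274% in Dnmt3l KO, between the WT values of 0.182% and 0.360%. The log2 fold change of Sox30 was 1.11 (SE 0.45, edgeR adjusted p = 0.142). Crem (chr18:3266354-3337773) was at 5.51 and 10.96 FPKM in WT, at 9.97 and 10.1 FPKM in Pld6 KO and at 17.5 and 13.98 FPKM in Dnmt3l KO cells, with Dnmt3l KO alone above WT, for a log2 fold change of 0.88 (SE 0.32, edgeR adjusted p = 0.116). As a share of the L/Z marker sum, Crem was at 0.310% and 0.260% in Dnmt3l KO and at 0.281% and 0.333% in WT. A gene-level count cannot separate the activator forms of CREM from its repressor forms. Rfx2 (chr17:56775897-56831008), at 8.76 and 17.4 FPKM in WT, 9.90 and 11.3 FPKM in Pld6 KO and 26.6 and 15.8 FPKM in Dnmt3l KO cells, overlapped WT in both mutants (0.68, SE 0.34, edgeR adjusted p = 0.218 in Dnmt3l KO). With the replicate number as a block, swapped within Dnmt3l KO, Sox30 was called in Dnmt3l KO cells. Otherwise, whether these genes passed depended on WT replicate 2. Without it WT is 1 library, the one rich in Rn45s and lowest in L/Z markers, which the fit takes to vary like the other groups, and Sox30 (2.23, edgeR adjusted p = 0.0132), Crem (1.43, 0.0325) and Rfx2 (1.27, 0.0477) then passed the threshold, as did Taf4b (1.08, 0.0385).

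Taf4b (chr18:14783201-14960424), the germ cell TFIID subunit, was at 41.7 and 49.3 FPKM in WT, at 65.4 and 70.4 FPKM in Pld6 KO and at 95.2 and 80.7 FPKM in Dnmt3l KO cells. The 3 genotypes did not overlap. In Dnmt3l KO cells the log2 fold change of 0.95 (SE 0.22, 1.93-fold) had an edgeR adjusted p of 0.0300 but lay under the 2-fold limit, and in Pld6 KO cells it was 0.58 (SE 0.22, edgeR adjusted p = 0.466). Relative to the L/Z marker sum, Taf4b was at 1.69% and 1.502% in Dnmt3l KO cells, within the WT range of 1.497% to 2.13%, and at 2.93% and 2.21% in Pld6 KO cells, above it.

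Ovol1 (chr19:5549137-5560575), the zinc-finger repressor, was at 2.53 and 4.70 FPKM in WT, at 3.18 and 3.44 FPKM in Pld6 KO and at 3.01 and 2.19 FPKM in Dnmt3l KO cells. Both mutants overlapped WT (-0.50, SE 0.39, edgeR adjusted p = 0.432 in Dnmt3l KO). As a share of the L/Z marker sum, Ovol1 was at 0.129% and 0.143% in WT and at 0.143% and 0.108% in Pld6 KO. In Dnmt3l KO the share was 0.0534% and 0.0408%.

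Dmrtb1 (chr4:107676288-107704011), the factor of the exit from mitosis, was at 97.9 and 134 FPKM in WT, at 57.1 and 78.5 FPKM in Pld6 KO and at 40.1 and 51.7 FPKM in Dnmt3l KO cells. No mutant library reached the lower WT library, and the Dnmt3l KO libraries lay below the Pld6 KO libraries. The log2 fold change was -1.33 (SE 0.25, 2.52-fold lower, edgeR adjusted p = 0.0178) in Dnmt3l KO and -0.77 (SE 0.25, edgeR adjusted p = 0.393) in Pld6 KO cells. From the highest level of the 10 genes in WT, Dmrtb1 came to rank 4 in Dnmt3l KO cells. Its share of the L/Z marker sum was 4.997% and 4.07% in the WT libraries, 2.56% and 2.47% with Pld6 lost, and 0.712% and 0.962% with Dnmt3l lost. The summed level of spermatogonia markers was 1295 and 1301 FPKM in WT, 1027 and 1078 FPKM in Pld6 KO and 593 and 1105 FPKM in Dnmt3l KO libraries, 11 of 15 were lower in Dnmt3l KO and 1, Sohlh1, was called, and the part of spermatogonia in the Dmrtb1 difference was not tested.

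Bcl11b (chr12:107910403-108004145), the T-cell factor, was a low gene in WT (0.916 and 1.34 FPKM, 83 and 119 counts) and in Pld6 KO cells (0.678 and 0.818 FPKM, 35 and 79 counts), and was almost undetected in Dnmt3l KO cells (0.114 and 0.0197 FPKM, 4 and 2 counts). The 3 genotypes did not overlap. Its log2 fold change in Dnmt3l KO was -4.56 (SE 0.67, edgeR adjusted p = 0.00706), and over summed counts the Dnmt3l KO level was 3.45% of WT (95% interval 1.25% to 7.64%, exact Clopper-Pearson, for counting error only). In Pld6 KO it was -0.59 (SE 0.49, edgeR adjusted p = 0.725), and between the mutants -3.97 (SE 0.68, edgeR adjusted p = 0.0623). The markers of other cell types, with 1 Leydig marker called, are given beside it. Of 13 Sertoli markers 12 had negative log2 fold changes (median -1.14, summed level 297 to 336 FPKM in WT and 157 to 342 FPKM in Dnmt3l KO), and of 4 Leydig markers tested 3 did (median -2.18, 12.6 to 23.6 FPKM in WT and 3.75 to 5.05 FPKM in Dnmt3l KO). Of 7 blood markers tested 6 had positive ones (median 0.98, 18.5 to 27.1 FPKM in WT and 19.6 to 23.0 FPKM in Dnmt3l KO). The T-cell gene Cd4, named after its values had been seen, was at 0 to 0.0292 FPKM in the 6 libraries. The other T-cell genes of the blood list, Cd3e, Cd3d, Cd3g, Cd8a and Lck, are not given here, so Cd4 does not stand for T cells. The part of these cells in the Bcl11b difference was not tested.

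E2f1 (chr2:154559400-154569892), the cell-cycle activator, was at 22.4 and 28.6 FPKM in WT, at 24.5 and 21.2 FPKM in Pld6 KO and at 17.5 and 25.5 FPKM in Dnmt3l KO cells. All 3 genotypes overlapped, and its log2 fold change in Dnmt3l KO was -0.24 (SE 0.25, edgeR adjusted p = 0.569). As a share of the L/Z marker sum, E2f1 was at 1.14% and 0.868% in WT and at 1.10% and 0.666% in Pld6 KO. In Dnmt3l KO the share was 0.310% and 0.474%.

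**Figure D4:**
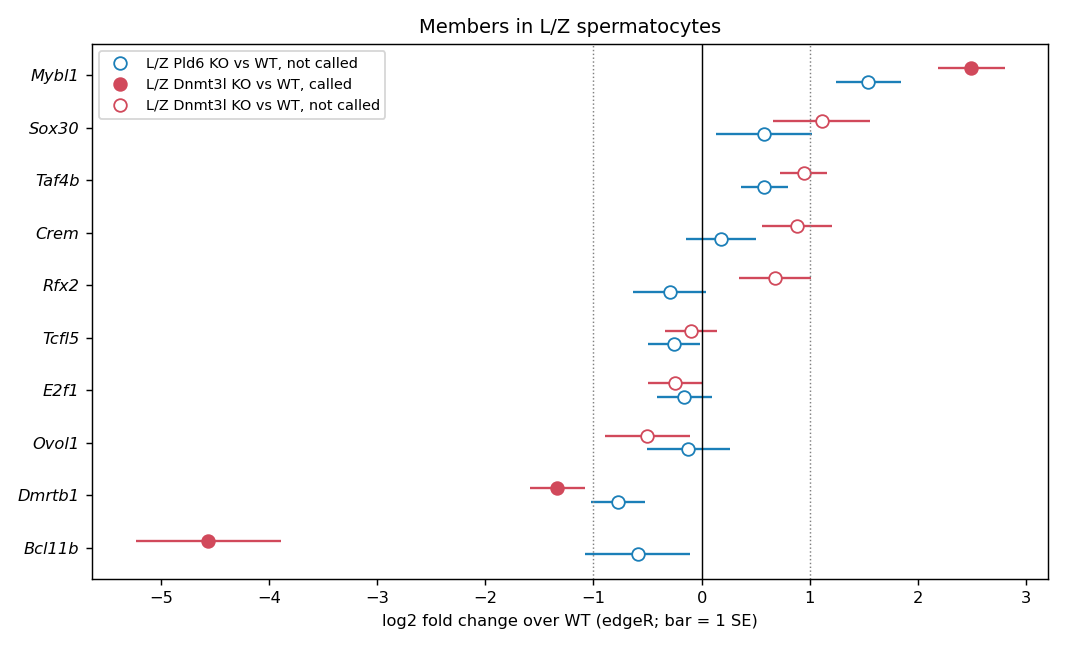
Log2 fold change over WT (horizontal axis, bars 1 SE, dotted lines at 2-fold) of the 10 genes in L/Z cells of each mutant. Filled points were called. In Dnmt3l KO, Mybl1 was called higher and Dmrtb1 and Bcl11b lower, and no point of Pld6 KO was filled.

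In Pld6 KO L/Z cells 0 of the 10 genes were called by edgeR, against 0.225% of all genes tested, and 3 of them (Mybl1, Taf4b and Dmrtb1) had an unadjusted p under 0.05. Between Dnmt3l KO and Pld6 KO cells 0 were called, against 0.0477% of all genes tested, and 4 (Mybl1, Rfx2, Dmrtb1 and Bcl11b) had an unadjusted p under 0.05. DESeq2 called 1 of the 10 genes in each of these comparisons, Mybl1 (edgeR adjusted p = 0.0886) and Bcl11b (edgeR adjusted p = 0.0623). The medians of the 10 genes were -0.14 and 0.26 on the log2 scale. In Pld6 KO against WT, the 6 genes other than Mybl1, Taf4b, Dmrtb1 and Bcl11b lay between -0.29 (Rfx2) and 0.58 (Sox30). The calls in Dnmt3l KO cells rested on Dnmt3l KO replicate 1, the shallowest L/Z library: without it none of the 3 passed, with log2 fold changes of 2.20 for Mybl1 (edgeR adjusted p = 0.0822), -1.16 for Dmrtb1 (0.158) and -5.81 for Bcl11b (0.0688), and 1 gene in all was called. Without Pld6 KO replicate 1, which was rich in Rn45s, Mybl1 was called higher in Pld6 KO cells (1.82, edgeR adjusted p = 0.00542), from 1 Pld6 KO library. Among the 4 L/Z libraries low in Rn45s, the log2 fold change of Mybl1 was 1.52 in Pld6 KO, from 1 library against 1, and 2.18 in Dnmt3l KO, from 2 libraries against 1.

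Base composition moved with genotype at L/Z. Across genes, the deviation of a library from the mean correlated with a gene's GC content with Spearman coefficients of 0.347 and 0.337 in the WT libraries and of -0.261 and -0.434 in the Dnmt3l KO libraries, a description of the libraries since genes are not replicates. Transcripts of Mybl1 had the lowest GC content of the 10 genes (37.0%) and those of Dmrtb1 the highest (59.3%). With an offset for GC content and length, Mybl1 was still called in Dnmt3l KO cells at a smaller size (1.84, edgeR adjusted p = 0.0120), Bcl11b was called (-4.58, 0.00983), and Dmrtb1 was no longer called (-0.85, 0.0918).

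Of 35 partners and relatives of the 10 factors tested in Dnmt3l KO cells, 2 rose and 2 fell, 6 had an edgeR adjusted p under 0.05 at any fold and 10 an unadjusted p under 0.05, with a median of 0.0046 on the log2 scale. Rfx3, a relative of Rfx2 that acts in ciliated cells, rose by 1.32 (SE 0.26, edgeR adjusted p = 0.0194), from 3.07 and 3.39 FPKM in WT to 9.71 and 6.61 FPKM. Rbl1, which encodes the RB relative p107 that restrains E2F factors, rose by 1.202 (SE 0.28, edgeR adjusted p = 0.0313). E2f2, a relative of E2f1, fell by 1.13 (SE 0.27, edgeR adjusted p = 0.0335), and Sox12, of the SOX family, fell by 1.14 (SE 0.24, edgeR adjusted p = 0.0234). None of the 35 was called by edgeR in Pld6 KO cells, with 1 at an unadjusted p under 0.05.

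Of 22 other germline regulators, from a list built around entry into meiosis, 2 rose and 2 fell in Dnmt3l KO cells. Prdm9 (1.88) and Brdt (1.71), the testis bromodomain protein, rose. Sohlh1 (-1.11), a factor of differentiating spermatogonia, and Rara (-1.11), a retinoic acid receptor, fell. Prdm9 and Sohlh1 were already counted above, among the L/Z and the spermatogonia markers. Stra8, the retinoic acid target at meiotic entry, was not called (125 and 202 FPKM in WT, 161 and 288 FPKM in Dnmt3l KO). Of 19 genes tested that come on around pachytene, 1 rose (Hist1h1t, the testis linker histone, by 3.03, from 3 and 4 counts to 19 and 21) and 3 fell (Piwil1, and the motile cilium genes Zmynd10, at -3.30, and Spag6, at -3.15 on the log2 scale). In Pld6 KO cells, Zmynd10 was the only gene called of those 19 (52 and 130 counts in WT, 0 and 3 in Pld6 KO, edgeR adjusted p = 0.0269). Of 10 haploid genes tested, Tekt1 fell in Dnmt3l KO cells (-2.29, edgeR adjusted p = 0.0496). Of the somatic lists, 0 of 13 Sertoli markers were called, 1 of 4 Leydig markers tested fell (Nr5a1, by 1.54), and 0 of 7 blood markers tested were called. Prospermatogonia markers had 0 calls of 14.

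In P0 testes, 0 of the 10 genes were called by edgeR in any of the 5 comparisons. edgeR called 0.00629% of the 15901 genes tested in Pld6 KO against WT, 0% for Dnmt3l KO against WT and 0.0126% for DKO against WT, with 0% and 0.0755% for DKO against the Pld6 KO and Dnmt3l KO testes, and DESeq2 and limma also called 0 of the 10 genes. Against WT, E2f1 in Dnmt3l KO was the only member with an unadjusted p under 0.05. The medians of the 10 genes were -0.03, 0.25 and -0.0013 on the log2 scale in Pld6 KO, Dnmt3l KO and DKO.

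Mybl1 was flat in P0 testes. It was at 8.96 and 9.97 FPKM in WT, at 9.13, 8.02, 11.9 and 6.60 FPKM in Pld6 KO, at 9.93 and 9.71 FPKM in Dnmt3l KO and at 8.27, 9.87 and 9.86 FPKM in DKO testes. All genotypes overlapped, and the log2 fold changes were -0.08 (SE 0.20), 0.07 (SE 0.23) and -0.0032 (SE 0.21) in Pld6 KO, Dnmt3l KO and DKO. In Pld6 KO replicate 1, the library with the least prospermatogonia marker RNA, Tcfl5 (2.75 FPKM), Taf4b (3.29 FPKM) and Sox30 (0.317 FPKM) had their lowest P0 value. Mybl1, Rfx2, Crem, Ovol1, Dmrtb1, E2f1 and Bcl11b were lowest in other libraries.

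**Figure D5:**
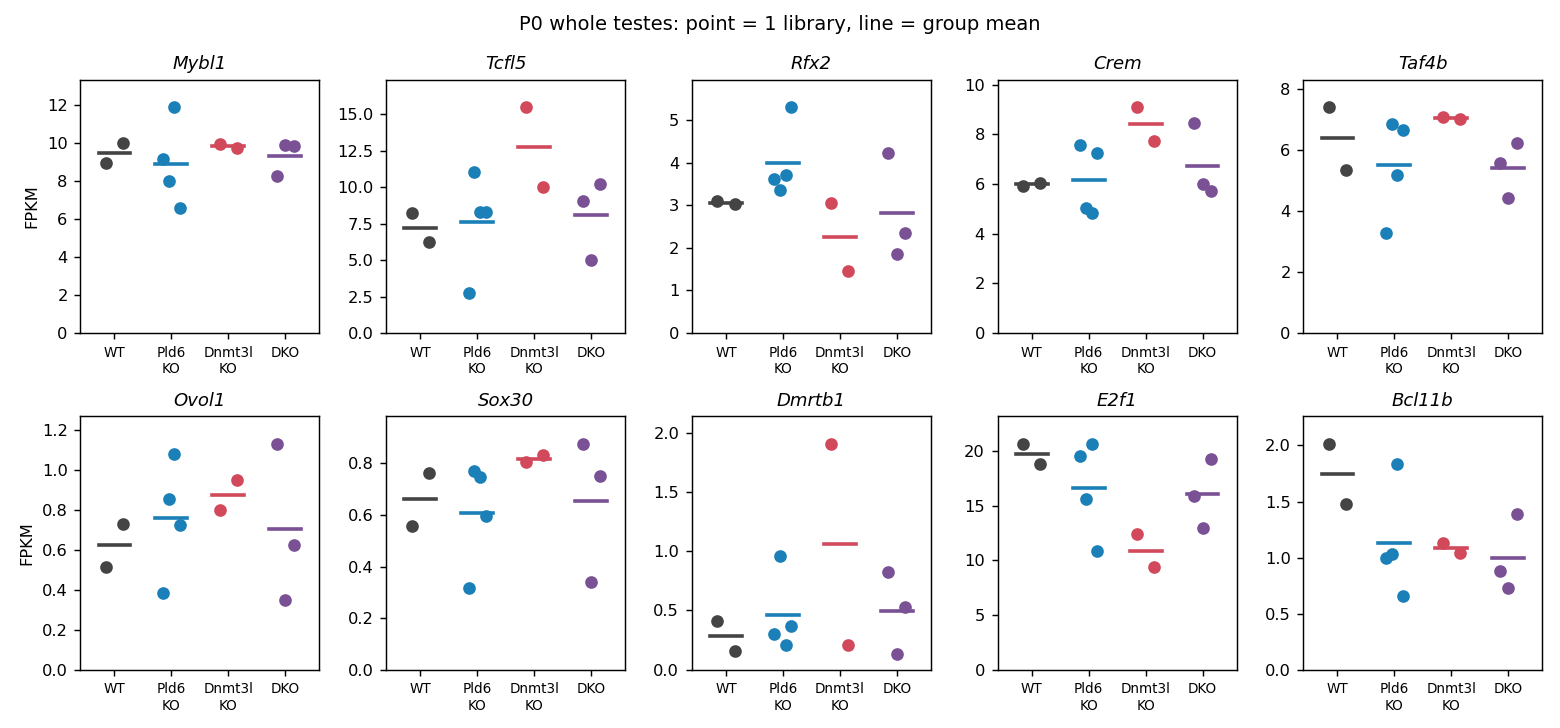
FPKM of each gene (vertical axes, each from 0) in every P0 library, by genotype. Points are libraries and lines are group means. Mybl1 lay between 6.60 and 11.9 FPKM in all 11 libraries, and the highest Dmrtb1 and Tcfl5 values were both in Dnmt3l KO replicate 1.

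E2f1 was the highest of the 10 genes in P0 WT testes, at 20.7 and 18.8 FPKM, and at 12.4 and 9.41 FPKM in Dnmt3l KO. Those groups did not overlap, but the log2 fold change of -0.83 (SE 0.28) had an edgeR adjusted p of 0.312. In Pld6 KO E2f1 was at 19.6, 15.6, 20.7 and 10.8 FPKM and in DKO at 15.9, 12.9 and 19.3 FPKM, overlapping WT. Bcl11b was at 2.02 and 1.48 FPKM in WT, and all but 1 of the 9 mutant libraries lay below WT, in a range of 0.660 to 1.83 FPKM. Its log2 fold changes were -0.63 (SE 0.35), -0.71 (SE 0.41) and -0.77 (SE 0.37) in Pld6 KO, Dnmt3l KO and DKO, with edgeR adjusted p-values of 0.963, 0.474 and 0.637, and the 3 comparisons share the 2 WT libraries.

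Dmrtb1 was barely detected at P0, with 3 to 37 counts per library. The 37 counts were in Dnmt3l KO replicate 1 (1.91 FPKM), where Tcfl5 was also highest (15.5 FPKM) and where the summed L/Z marker level was 257 FPKM. The Dnmt3l KO log2 fold change of Dmrtb1, 1.93 (SE 1.03, edgeR adjusted p = 0.432), became -0.42 (SE 1.28) without that library. Sox30 and Ovol1 were at most 0.877 and 1.13 FPKM in the P0 libraries, and Crem and Rfx2 lay between 4.84 and 9.10 FPKM and between 1.46 and 5.31 FPKM. Between DKO and the single mutants, the log2 fold changes of the 10 genes ran from -1.14 (Dmrtb1) to 0.55 (E2f1), both against Dnmt3l KO.

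The effect of Dnmt3l loss on Mybl1 and Bcl11b differed between L/Z cells and P0 testes. In a fit of 14 libraries, the L/Z log2 fold change of Mybl1 exceeded that at P0 by 2.39 (SE 0.41, edgeR adjusted p = 0.0294), and that of Bcl11b was lower than at P0 by -3.91 (SE 0.81, edgeR adjusted p = 0.0445). These were 2 of the 10 genes, against 0.665% of the 16547 genes tested. Dmrtb1, with -3.27 (SE 0.95, edgeR adjusted p = 0.109), did not pass. In Pld6 KO, 0 of 10 passed by edgeR against 0.0121% of all genes, with 1 gene, Mybl1 (1.60, SE 0.38, edgeR adjusted p = 0.334), at an unadjusted p under 0.05. Stage cannot be told apart from tissue, sorting and read type. Both calls were narrow: with the replicate number as a block Mybl1 was at an edgeR adjusted p of 0.0582 and Bcl11b at 0.0786, and leaving out any library of the 4 groups compared ended the Bcl11b call (edgeR adjusted p from 0.0548 to 0.165). The Mybl1 call was lost without L/Z WT replicate 1 (0.0758), L/Z Dnmt3l KO replicate 1 (0.125), P0 WT replicate 1 (0.101), P0 WT replicate 2 (0.113) or P0 Dnmt3l KO replicate 1 (0.120), with differences of 2.12 to 2.45 on the log2 scale.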

How the data were processed

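Poly(A)+ RNA was sequenced as stranded libraries from sorted L/Z spermatocytes (6 libraries) and P0 testes (11 libraries). The authors aligned reads to mm10 with TopHat and quantified RefSeq genes with Cuffdiff (versions not given in the sources used here). The deposited tables hold estimated counts of fragments per gene and replicate, and FPKM, which the authors scaled by transcript length and library size with Cuffdiff. Replicates 0, 1 and so on of the tables were read as replicates 1, 2 and so on of the labels, on which no group depends. P-values measure the spread between the replicates as labelled.

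Estimated counts were rounded (97.8% and 97.7% of values were whole). Genes with a failed status (6 and 2) and genes under the filterByExpr limit were left out. Library totals were 5194238 to 23498968 fragments, so genes with few counts have wide errors. Each stage was fitted with edgeR 4.0.16 (R 4.3.3), TMM scaling and quasi-likelihood tests over all groups. Calls needed an adjusted p (Benjamini-Hochberg) under 0.05 together with a change over 2-fold, and stage differences came from an interaction term over 14 libraries with no fold limit. Alternatives used DESeq2 1.42.0, limma 3.58.1 on log2(FPKM + 1) and log2(FPKM + 0.1), other scalings, filters and blocks, and each replicate left out, where a lone library is assumed to vary like the other groups. Positions matched RefSeq GRCm38.p6 for 23823 of 23980 genes. The promoter motif search did not cover Mybl1, Crem, Taf4b and Ovol1, so the cAMP response element was not looked for before Crem. Scripts were tested on simulated data.

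All 10 genes are given in every comparison. From each gene list at most 4 called genes by smallest adjusted p are named, or at most 2 by level where none was called, and others were named after their values were seen (Stra8, Asz1 and Cd4). The members and lists were chosen with earlier results of these data known.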

Additional observations from a re-analysis of the deposited data

Results flagged for a closer look

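For 2 of the 10 genes the effect of Dnmt3l loss differed between L/Z cells and P0 testes by a test of the difference itself. For Mybl1 the log2 fold change was 2.45 in L/Z cells and 0.06 in P0 testes, a difference of 2.39 (SE 0.41, edgeR adjusted p = 0.0294). For Bcl11b it was -4.64 in L/Z cells and -0.72 in P0 testes, a difference of -3.91 (SE 0.81, edgeR adjusted p = 0.0445). Stage cannot be told apart from tissue, sorting and read type, and no cause was tested. Among 12 sets of 4 P0 Pld6 KO values (the 10 genes, Pld6 and Dnmt3l), 0 held a value far from the others by Dixon's criterion.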

How the results depend on the processing

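Of the 10 genes, 3 were called in L/Z Dnmt3l KO against WT, and leaving out a library gave 0 to 7. In L/Z Pld6 KO against WT the count of 0 became 1 (Mybl1) with no filter on low counts, a 45S rRNA factor, a crossed replicate block, the libraries low in 45S rRNA alone or DESeq2, and was 0 to 1 with a library left out. Between the L/Z mutants the count of 0 became 1 (Bcl11b) under those same settings and with the compared groups alone, and was 0 to 1 with a library left out. At P0 all 77 alternatives gave 0. For the stage difference, the count of 0 in Pld6 KO became 1 (Mybl1) with DESeq2, and the count of 2 in Dnmt3l KO became 0 with the replicate block, 0 without P0 Pld6 KO replicate 1 and P0 Dnmt3l KO replicate 1, and 0 to 2 with a library left out. The cause was not tested. Over all genes, the 33 called in L/Z Pld6 KO ranged from 1 (compared groups alone) to 122 (libraries low in 45S rRNA alone), with 24 under the replicate block and 90 with DESeq2. The 802 in L/Z Dnmt3l KO ranged from 1 (without Dnmt3l KO replicate 1) to 1282 (crossed block), with 265 under the GC offset, and the 7 between the L/Z mutants from 0 (without Dnmt3l KO replicate 2) to 516 (crossed block).

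Same-numbered L/Z libraries of WT and Pld6 KO deviated together (r = 0.485), replicate 1 of both being rich in Rn45s, but those of Dnmt3l KO did not deviate with either (-0.144 and -0.135), so the numbers were not taken as pairs. With the replicate block the counts at L/Z were 0, 3 and 0, and it changed no other call than the stage difference. The crossed block, the 45S settings and the libraries left out together were chosen after seeing the data. Among single-gene values, 1370 were unchanged in call and direction, 114 moved, 22 gained and 22 lost the threshold. For Bcl11b, limma on log2(FPKM + 1) gave -0.99, under the fold limit. With 2 libraries in a group, a change that misses the threshold is not shown to be absent.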
